A study of Saccharomyces cerevisiae with 15 samples.

Results

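The RNA of budding yeast (Saccharomyces cerevisiae) that lacks XRN1 was compared directly with the RNA of yeast that lacks UPF1, to ask which transcripts need the exonuclease but not nonsense-mediated decay, and which show the reverse. The members are 8 of the 15 RNA sequencing libraries of the series, chosen by the genotype in their titles. The 4 without XRN1 are xrn1 1, xrn1 2, htz1 xrn1 and swr1 xrn1, and the 4 without UPF1 are upf1 1, upf1 2, htz1 upf1 and swr1 upf1. As a background that has both genes, 5 libraries were used, namely wild type 1 and 3, htz1 1 and 2, and swr1. HTZ1 encodes the histone variant H2A.Z and SWR1 the remodeller that deposits it, so each arm holds the same mix of an intact, an htz1 and a swr1 state. Per the labels, all strains are haploid, of BY4741/2 background and his-leu-ura-, and the cells were in mid-log growth in YP with dextrose. RNA was depleted of ribosomal RNA before library construction. Each double deletion and swr1 is represented by 1 library, and the labels do not say whether numbered libraries stem from separate cultures. The p-values below therefore reflect library-to-library spread. Marker genes, given below, differed between the numbered libraries of xrn1, htz1 and wild type, so their spread includes differences between strains. For upf1 1 and upf1 2 the spread could be purely technical.

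Xrn1 degrades decapped RNA from its 5′ end in the cytoplasm and is the final step of the main route of mRNA turnover. Nonsense-mediated decay (NMD), led by the helicase Upf1, picks out mRNAs whose translation ends early, for example on an unspliced intron, after a frameshift site or at the end of an upstream reading frame, and passes them to decapping and Xrn1. An RNA removed by NMD therefore depends on both proteins, whereas an RNA decapped for other reasons depends on Xrn1 alone. Edc3, an enhancer of decapping, handles a pair of transcripts, YRA1 and RPS28B, without Upf1.

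Short stretches of 6 transcripts show these features. They are from the R64 (sacCer3) reference, 5′ to 3′ on the coding strand, with the 6 bases of the 5′ splice site, the start codon of an upstream frame or the frameshift heptamer in capitals. YRA1 is the Edc3 substrate, and the other 5 are among the known NMD targets measured here.
YRA1 5′ splice site, chrIV:1236834-1236860, forward strand: gctgtaagaGTATGTtaatacgtgaaa
RPL28 5′ splice site, chrVII:311007-311033, forward strand: acgtctcagGTATGTagttccatttgg
RPL22B 5′ splice site, chrVI:64903-64929, reverse strand: gctccaaacGTACGTtaattttcgttc
REC107 5′ splice site, chrX:469246-469272, reverse strand: ctacgaacgGTTCGTaccaacacagtg
EST3 frameshift site, chrIX:335925-335951, reverse strand: tcacaccaaataCTTAGTTgagttttc
CPA1 upstream start codon, chrXV:882756-882782, forward strand: aaacattatATGtttagcttatcgaac
The hexamer gtatgt of YRA1 and RPL28 stood at the 5′ splice site of 195 of 271 genes with an intron, gtacgt of RPL22B at 26 and gttcgt of REC107 at 2. In the unspliced RNA the first in-frame stop lay 7 bases into the 766-base intron of YRA1, after 97 codons. In RPL22B it lay 7 bases into a 321-base intron after 6 codons, in RPL28 6 bases into a 511-base intron after 18 codons, and in REC107 78 bases into an 80-base intron after 131 codons. The upstream frame of CPA1 holds 25 codons before its stop. The premature stop of unspliced YRA1 thus comes as early in the intron as that of RPL22B, and the direct differences of both genes are given with the known targets and the Edc3 substrates. RPKM times the whole gene length gave whole reads where this was checked, in values under 100 reads. Genes with introns were not checked apart, and the counter is not named. A level is therefore not taken to separate spliced from unspliced RNA.

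Levels are in RPKM (reads scaled by gene length and by library size), and differences are in log2(RPKM + 1), xrn1 minus upf1, with the standard error after ±. A gene is called at a Benjamini-Hochberg adjusted p under 0.05 in limma across all genes tested. Values per library are given in the order xrn1 1, xrn1 2, htz1 xrn1 and swr1 xrn1, then upf1 1, upf1 2, htz1 upf1 and swr1 upf1. The deleted genes matched the labels. XRN1 lay at 0.180, 0.290, 0.253 and 0.146 RPKM in the xrn1 libraries and at 155, 126, 157 and 162 in the upf1 libraries. NAM7, the name of UPF1 in the annotation, lay at 152, 155, 139.6 and 149.7 RPKM and at 0.190, 0.166, 0.191 and 0.192 RPKM. HTZ1 was at most 0.272 RPKM in the 2 htz1 double deletions and SWR1 at most 0.0972 RPKM in the 2 swr1 double deletions. Totals implied by the values ran from 7160182 reads (swr1 upf1) to 52087596 (swr1 xrn1). Markers of mating type were balanced between the arms, with the swr1 library of each arm of MATalpha type (MF(ALPHA)1 at 2942 and 1968 RPKM) and the other 6 libraries of MATa type (at most 4.72). Among the controls, wild type 1 and swr1 were of MATalpha type (2262 and 2226), and wild type 3, htz1 1 and htz1 2 of MATa type (at most 3.59). In the intact state, comparisons with the controls are thus not balanced for mating type. MET17 was at or near 0 in 2 libraries of each arm. It lay at 0.141 RPKM in xrn1 1 and 143 in xrn1 2, and LYS2 at 78.7 and 0.177. Among the controls, MET17 lay at 245 RPKM in htz1 1 and 0.0816 in htz1 2. In the htz1 state MET17 lay at 256 RPKM in htz1 xrn1 and 0.361 in htz1 upf1, and LYS2 at 0.0132 and 84.5. Reading frames in the ribosomal DNA (rDNA) took 0.0189 to 12.2% of the summed RPKM in the xrn1 libraries and 0.233 to 16.1% in the upf1 libraries. Across genes, Spearman's rho between libraries was 0.885 to 0.949 within the xrn1 arm, 0.914 to 0.965 within the upf1 arm and 0.787 to 0.881 between arms.

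As deposited, most transcripts had a higher level without Xrn1 than without Upf1. Of 6530 genes tested, 3457 (52.9%) were called higher without Xrn1 and 561 (8.59%) lower, and the median difference was 0.51. The same direction held in each H2A.Z state, with medians of 0.57 in the intact state, 0.39 without HTZ1 and 0.54 without SWR1. The libraries of the 2 arms did not overlap for 3014 genes higher without Xrn1 (46.2%) and for 401 genes lower (6.14%). RPKM is a share of a library, and the shares differed at the top: the 10 most abundant entries held 9.75 to 18.6% of the summed RPKM in the xrn1 libraries and 17.7 to 25.4% in the upf1 libraries. Every difference was therefore also computed after each library was centred on its median log ratio to all libraries, which lowers each direct difference by 0.53. Centred, 1707 genes were higher (26.1%) and 1708 lower (26.2%), so a difference between 0 and 0.53 changes sign with the scaling. RPKM values cannot tell which scaling is nearer to RNA per cell.

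Against the 5 control libraries, 4874 of 6502 genes (75%) were called higher without Xrn1 and 477 (7.34%) lower, 82.3% in all, and 2032 (31.3%) were called higher without Upf1 and 48 (0.738%) lower, 32% in all. After centring, 2099 (32.3%) and 1894 (29.1%) were higher and lower without Xrn1, 61.4% in all, and 1364 (21%) and 1503 (23.1%) without Upf1, 44.1% in all. Both comparisons share these controls. Of the 3457 genes higher without Xrn1 than without Upf1, 3386 were also called higher without Xrn1 than in the controls and 849 were also called higher without Upf1 than in the controls. Of the 561 genes lower without Xrn1, 366 were called below the controls there, and 135 were called above the controls in the upf1 libraries. A lower value without Xrn1 was thus more often a fall below the controls in the xrn1 libraries than a rise above them in the upf1 libraries.

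**Figure D1:**
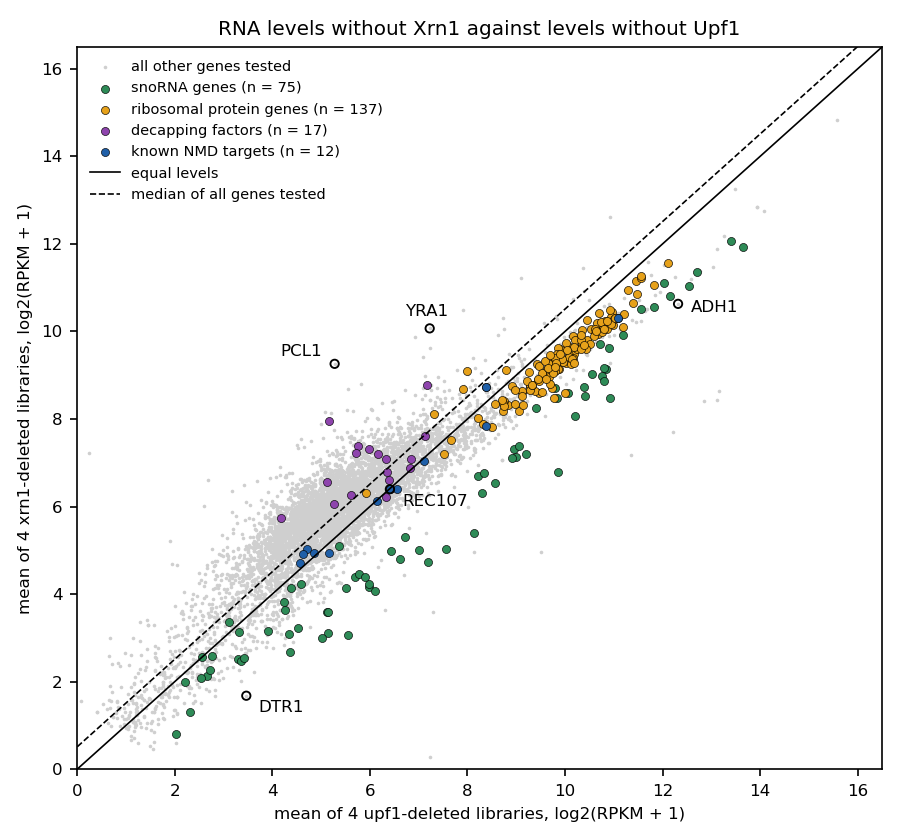
Mean log2(RPKM + 1) of the 4 upf1-deleted libraries (x axis) against that of the 4 xrn1-deleted libraries (y axis), 1 point per gene tested, with 4 gene lists in colour. In these deposited values most genes lie above the solid line of equal levels, near which the known NMD targets sit (after centring 8 of the 12 are lower without Xrn1), while snoRNA and ribosomal protein genes lie below it.

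The known NMD targets were raised in both deletions, and as deposited most were not called different between them. All 12 measured members were called higher without Upf1 than in the controls, and 11 were called higher without Xrn1, all but RPL28. Over all genes the shares were 31.3% and 75%. In centred values 11 members were higher without Upf1 and 9 without Xrn1, beside 21% and 32.3% of all genes, and 1 was called lower without Xrn1. In the direct comparison none was called higher and 2 were called lower (CPA1 and RPL28), beside 52.9% and 8.59% of all genes. The median difference was -0.02 against 0.51 over all genes tested. After centring, 8 of the 12 were called lower (26.2% of all genes), at a median of -0.55. For 10 of the 12, all 8 deletion libraries lay above all 5 controls. This share was not computed over all genes, so it is not read as particular to the targets. For 11 of the 12 the 2 arms overlapped. Over all genes, the arms did not overlap for 46.2% (higher without Xrn1) and 6.14% (lower). For 6 of the 12 the 95% interval of the direct difference lay within 1.5-fold as deposited, a share also not computed over all genes. The list is from textbook knowledge and was chosen with earlier results of these data known.

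Among unspliced or unusually spliced targets, REC107, a meiotic recombination gene whose rare 5′ splice site is printed above, lay at 78.5, 86.8, 90.3 and 77.9 RPKM without Xrn1 and at 78.4, 85.5, 96.4 and 77.1 without Upf1, against 14.9 to 17.4 in the controls. The 2 arms overlapped, and every deletion library lay above every control (log2 difference -0.01 ± 0.11, adjusted p = 0.923; centred -0.54, adjusted p = 0.00472). RPL22B, a ribosomal protein gene whose Rpl22 product limits the splicing of its own transcript, lay at 513, 418, 368 and 416 RPKM and at 360.3, 242, 364 and 379 RPKM, against 64.4 to 108 in the controls. Its arms overlapped through htz1 xrn1 and swr1 upf1, and upf1 2 was the lowest of the 8 libraries (log2 difference 0.36 ± 0.19, adjusted p = 0.13; centred -0.17, adjusted p = 0.424). RPL28, an abundant ribosomal protein gene whose unspliced form is an NMD target, lay at 1810.4, 1368, 1080.1 and 992 RPKM and at 2401, 2257, 1842 and 2237 RPKM, against 1284 to 1742 in the controls. Its upf1 libraries were all above its xrn1 libraries (log2 difference -0.77 ± 0.17, adjusted p = 0.00479), it was called higher without Upf1 (0.49 ± 0.14, adjusted p = 0.018 against the controls) and not without Xrn1 (-0.27 ± 0.14, adjusted p = 0.0931) as deposited. Centred, the direct difference was -1.298 (adjusted p = 9.86e-04), RPL28 was called below the controls without Xrn1 (-1.23, adjusted p = 0.000257), and it was not called without Upf1 (0.14, adjusted p = 0.597).

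Of the targets with an upstream frame or a frameshift, CPA1, which encodes a carbamoyl phosphate synthetase subunit and is repressed by its upstream peptide, lay at 185, 214, 271 and 244 RPKM and at 328, 258, 492 and 299 RPKM, against 70.4 to 214 in the controls. Only upf1 2 fell within the range of the xrn1 libraries (log2 difference -0.56 ± 0.15, adjusted p = 0.0115), and without htz1 xrn1 or htz1 upf1 the call was lost (differences of -1.01 and -1.01 relative to the median of all genes, against -1.07; adjusted p = 0.0533 and 0.0518). EST3, a telomerase subunit made through the frameshift printed above, lay at 94.4, 76.6, 81.1 and 82.3 RPKM and at 94.5, 75.1, 105 and 99.6 RPKM, with overlapping arms (log2 difference -0.15 ± 0.15, adjusted p = 0.385; centred -0.69, adjusted p = 0.00341). STN1, of the telomere cap, lay at 79.3, 80.1, 52.3 and 66.3 RPKM and 74.5, 89.1, 60.2 and 58.03 RPKM against 6.38 to 12.2 in the controls, also overlapping (log2 difference -0.02 ± 0.13, adjusted p = 0.911; centred -0.55, adjusted p = 0.00719). EST1 (0.13 ± 0.12, adjusted p = 0.408), EST2 (-0.22 ± 0.15, adjusted p = 0.223) and TEN1 (0.08 ± 0.22, adjusted p = 0.774) were not called as deposited, and neither were the transcription factor PPR1 (0.31 ± 0.16, adjusted p = 0.13), the kinetochore gene CTF13 (0.27 ± 0.14, adjusted p = 0.14) or the magnesium transporter ALR1 (-0.07 ± 0.17, adjusted p = 0.738). Centred, EST1, EST2 and ALR1 were called lower without Xrn1, while TEN1, PPR1 and CTF13 were not called. Of 13 telomere maintenance genes tested, a list that shares the EST genes, STN1 and TEN1 with the NMD targets, 5 were called higher without Xrn1 and none lower (median 0.23), and centred 1 was higher and 4 lower (median -0.30). As deposited that is 38.5% higher, against 52.9% of all genes. Centred it is 7.69% higher and 30.8% lower, against 26.1% and 26.2%. Against the controls 13 were called higher without Xrn1 and 10 without Upf1 (shares of all genes 75% and 31.3%), and centred 8 were higher and 1 lower without Xrn1 and 8 higher and 2 lower without Upf1. RIF1, of telomere length control, was called in the direct comparison in both scalings (1.14; centred 0.61, a call lost without any 1 double deletion or xrn1 2), while the helicase PIF1 (0.83; centred 0.297) and CDC13, of the telomere cap (0.75; centred 0.22), were called as deposited. So was the Ku subunit YKU70 (0.44), whose difference changed sign with centring (-0.09, adjusted p = 0.626) and whose call was lost without any 1 of xrn1 1, upf1 1, swr1 xrn1 and swr1 upf1 (adjusted p = 0.0573 to 0.0969). Of 3 genes made by a programmed frameshift, EST3 among them, the antizyme gene OAZ1 was called higher as deposited (0.95) and not centred (0.42).

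The Edc3 substrate YRA1, an mRNA export factor whose pre-mRNA is kept unspliced to limit its own product, showed the other pattern. It lay at 1269.8, 982, 1233 and 866 RPKM without Xrn1 and at 149, 146, 170.05 and 132 RPKM without Upf1, against 149.8 to 193 in the controls. Every xrn1 library was above every other library, and the upf1 libraries overlapped the controls (log2 difference 2.84 ± 0.13, adjusted p = 2.80e-05; centred 2.31, adjusted p = 2.45e-04; upf1 against controls -0.24 ± 0.11, adjusted p = 0.124). RPS28B, whose mRNA binds the Rps28 protein and Edc3 to bring about its decapping, lay at 847, 424, 638 and 385 RPKM and at 306, 323, 183 and 233 RPKM, against 264 to 563. Its arms did not overlap (log2 difference 1.095 ± 0.25, adjusted p = 0.00604), but the difference was not called after centring (0.56, adjusted p = 0.119).

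**Figure D2:**
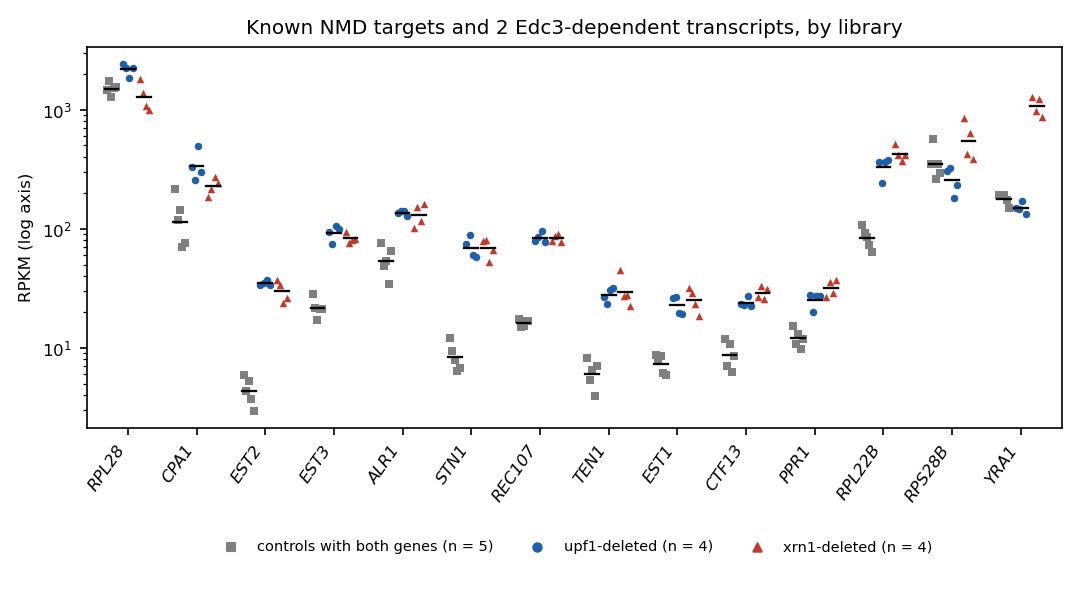
RPKM on a log axis of the 12 known NMD targets and the Edc3-dependent transcripts RPS28B and YRA1 in 5 control, 4 upf1-deleted and 4 xrn1-deleted libraries, 1 symbol per library, with a bar at the geometric mean of each group. For REC107 and STN1 both deletions sit together above the controls, while for YRA1 the xrn1 libraries stand at 866 to 1269.8 RPKM and the upf1 libraries at 132 to 170.05.

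Of 4 NMD factors other than Upf1, UPF3 and NMD2 were called higher. UPF3 lay at 49.8, 71.3, 49.9 and 98.1 RPKM and at 25.03, 22.9, 34.2 and 27.4 RPKM (log2 difference 1.22 ± 0.21, adjusted p = 0.00146). The arms did not overlap and the call held after centring (0.69, adjusted p = 0.0205), but not in centred values without swr1 xrn1, swr1 upf1 or xrn1 2 (differences of 0.52, 0.52 and 0.61 relative to the median of all genes). NMD2 (log2 difference 0.71 ± 0.13, adjusted p = 0.00182) was not called after centring (0.18). EBS1 and NMD4, whose mRNAs were raised in both deletions, were not called as deposited and were called lower without Xrn1 after centring. NMD4 lay at 115, 86.4, 62.02 and 61.5 RPKM and at 95.1, 99.6, 64.6 and 87.6 RPKM against 11.2 to 22.1 in the controls (log2 difference -0.12 ± 0.15, adjusted p = 0.504; centred -0.65, adjusted p = 0.00849). EBS1 had a difference of 0.12 ± 0.11, adjusted p = 0.394 (centred -0.41, adjusted p = 0.0122).

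Of 17 decapping factors, 13 were called higher without Xrn1 and none lower (76.5% against 52.9% of all genes; median 0.80), and centred 8 were higher and 2 lower (median 0.27). EDC1, a decapping enhancer, differed most. It lay at 223, 207, 247 and 324 RPKM and at 39.5, 25.5, 36.9 and 39.9 RPKM, against 33.7 to 44.6 in the controls (log2 difference 2.79 ± 0.16, adjusted p = 4.67e-05; centred 2.25, adjusted p = 3.81e-04). The xrn1 libraries were far above both other groups, which overlapped. DCP2, the catalytic subunit of the decapping enzyme (log2 difference 1.61 ± 0.11, adjusted p = 4.99e-05), DHH1, a helicase that represses translation and promotes decapping (log2 difference 1.61 ± 0.14, adjusted p = 7.64e-05), and DCS2, a stress-induced relative of the scavenger decapping enzyme (log2 difference 1.56 ± 0.19, adjusted p = 2.54e-04), followed, each with arms that did not overlap and with the call kept after centring. In the Ccr4-Not and Pan2-Pan3 deadenylases, 9 of 11 genes were called higher (81.8%) and none lower (median 0.83). Centred, 5 were higher (45.5%, against 26.1% of all genes) and none lower. CAF40 (1.19; centred 0.66) and NOT5 (0.98; centred 0.45), both of Ccr4-Not, were called in both scalings with no overlap of the arms. MOT2, the ubiquitin ligase of that complex, lay at 119, 129, 169 and 167 RPKM and at 38.1, 35.8, 42.8 and 40.8 RPKM (log2 difference 1.85 ± 0.12, adjusted p = 4.99e-05; centred 1.32), and POP2, a deadenylase subunit, at 103, 92.7, 114 and 107 and at 42.7, 40.4, 47.4 and 42.4 (log2 difference 1.25 ± 0.11, adjusted p = 8.32e-05; centred 0.72). Both were called in both scalings with no overlap of the arms.

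Of 21 genes of the exosome and its Ski and TRAMP cofactors, 16 were called higher without Xrn1 (76.2%, against 52.9% of all genes) and 1 lower as deposited (median 0.64). Centred, 2 were higher (9.52%, against 26.1% of all genes) and 3 lower (14.3%, against 26.2%; median 0.11). The 2 were AIR2, an RNA-binding subunit of TRAMP (log2 difference 1.33 ± 0.13, adjusted p = 1.21e-04; centred 0.796, adjusted p = 0.00122), and SKI7, which links the Ski complex to the exosome (log2 difference 1.27 ± 0.14, adjusted p = 1.78e-04; centred 0.73, adjusted p = 0.00276). CSL4, an exosome cap subunit, and TRF5, a TRAMP poly(A) polymerase, were called as deposited (0.84 ± 0.19, adjusted p = 0.00531 and 0.84 ± 0.18, adjusted p = 0.00431) and not centred. Of 4 factors of 5′ exonuclease decay in the nucleus, RTT103, which acts with the nuclear exonuclease Rat1 at termination, was called in both scalings (log2 difference 1.17 ± 0.14, adjusted p = 2.30e-04; centred 0.64). DXO1, a decapping exonuclease, lay at 72.2, 74.5, 70.9 and 84.8 RPKM and 49.7, 43.6, 57.005 and 48.4 RPKM against 15.4 to 29.7 in the controls, and its direct difference (log2 difference 0.599 ± 0.13, adjusted p = 0.00411) was not called after centring (0.07).

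**Figure D3:**
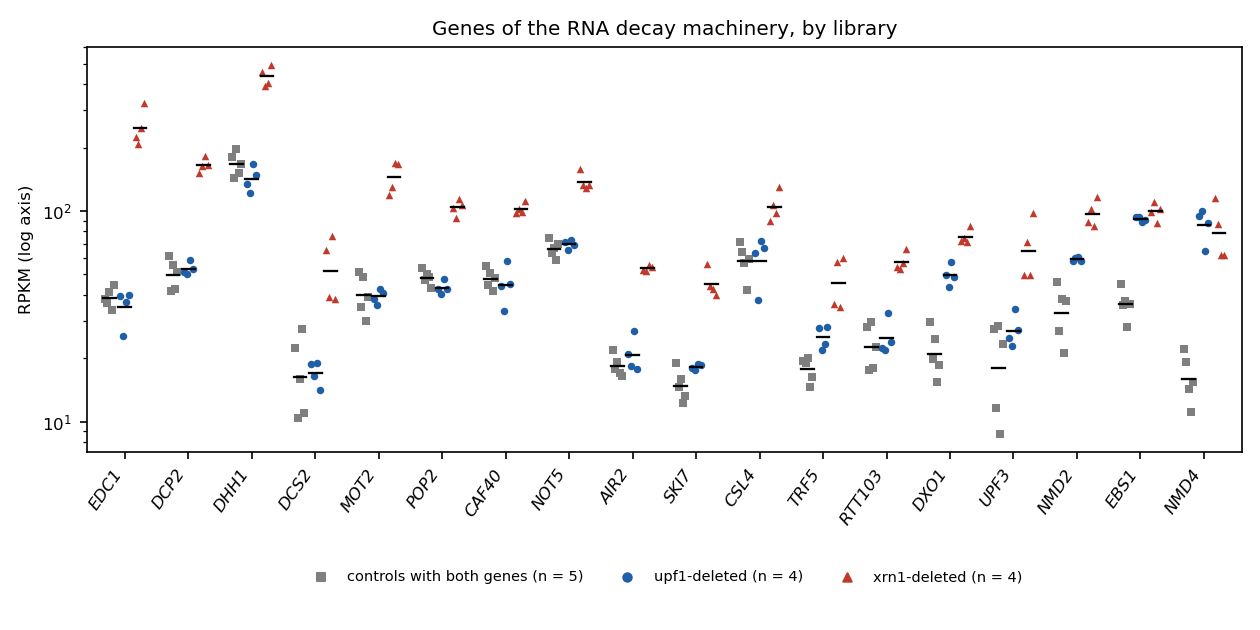
RPKM on a log axis of genes of the RNA decay machinery in 5 control, 4 upf1-deleted and 4 xrn1-deleted libraries, 1 symbol per library, with a bar at the geometric mean of each group. EDC1 stands highest above both other groups in the xrn1 libraries (207 to 324 RPKM), and NMD4 and EBS1 are raised in both deletions.

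Leaving out the deleted genes, the 15 largest rises without Xrn1 among genes whose arms do not overlap were PCL1, MPC3, CLB6, YER053C-A, DDR2, TMA10, ATG41, YFR052C-A, HOS2, RTS3, HXK1, CUR1, NRG1, ADA2 and YRA1. The ratio of arm means ran from 6.64-fold to 15.99-fold. All 15 were called in both scalings. None was called higher without Upf1 than in the controls, and 2 were called lower, beside 31.3% and 0.738% of all genes. The ranking favours genes with low upf1 values, so these counts follow in part from the choice. YFR052C-A has no match in the annotation.

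Among cell-cycle genes, PCL1, a G1 cyclin of the Pho85 kinase, lay at 434, 606, 740.1 and 721 RPKM without Xrn1 and at 36.2, 58.3, 27.4 and 35.1 without Upf1, against 36.7 to 44.3 in the controls. The lowest xrn1 library was above the highest of the others, and the upf1 libraries overlapped the controls (log2 difference 3.98 ± 0.26, adjusted p = 4.99e-05; centred 3.45; upf1 against controls -0.05 ± 0.21, adjusted p = 0.878). CLB6, an S-phase cyclin, lay at 65.3, 63.5, 68.1 and 56.9 RPKM and at 5.46, 10.04, 3.12 and 3.54, against 2.47 to 5.22 in the controls (log2 difference 3.41 ± 0.25, adjusted p = 5.65e-05; centred 2.88). Its xrn1 libraries spanned a narrow range far above both other groups.

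Among regulators of transcription, HOS2, a histone deacetylase of the Set3 complex, lay at 219, 194, 150.01 and 189.7 RPKM and at 24.3, 27.1, 20.6 and 21.1, against 15.4 to 32.3 (log2 difference 2.96 ± 0.12, adjusted p = 1.47e-05). ADA2, a coactivator subunit of the SAGA complex, lay at 209, 205, 248 and 286 and at 29.005, 26.8, 36.6 and 31.4, against 22.3 to 31.1 (log2 difference 2.89 ± 0.12, adjusted p = 1.47e-05). In both, the xrn1 libraries stood far above the other groups, and the upf1 libraries overlapped the controls. NRG1, a repressor of glucose-repressed genes, lay at 184, 117, 227 and 166 and at 24.4, 20.4, 24.9 and 17.5, against 14.9 to 32.9 (log2 difference 2.91 ± 0.18, adjusted p = 4.99e-05).

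Genes of carbon metabolism and stress varied more among the libraries. HXK1, a hexokinase, lay at 1223, 699, 1136 and 777 RPKM and at 84.1, 82.98, 313 and 97.4, with htz1 upf1 above the other upf1 libraries, and the controls ran from 109 to 604 (log2 difference 2.94 ± 0.29, adjusted p = 1.17e-04; upf1 against controls -1.06 ± 0.33, adjusted p = 0.0266). MPC3, a subunit of the mitochondrial pyruvate carrier, lay at 147, 62.9, 135 and 69.2 and at 5.42, 2.82, 22.8 and 1.9001, against 3.27 to 27.8 (log2 difference 3.92 ± 0.400, adjusted p = 1.28e-04), and xrn1 1 and htz1 xrn1 were the highest. TMA10, a ribosome-associated protein, had the same pair of high xrn1 libraries, with 575, 214, 663 and 347 and 53.9, 31.5, 76.9 and 34.2 against 29.2 to 125 (log2 difference 3.13 ± 0.305, adjusted p = 1.11e-04). DDR2, a multistress gene, lay at 145, 50.6, 124 and 47.4 and at 5.51, 2.23, 20.95 and 13.5, while the controls spread over 13.3 to 144 and overlapped the xrn1 libraries (log2 difference 3.18 ± 0.51, adjusted p = 9.80e-04; centred 2.65). For DDR2 the rise above the controls was called as deposited (1.55 ± 0.52, adjusted p = 0.0146) and not centred, and the upf1 change from the controls was -1.63 ± 0.52, adjusted p = 0.0287.

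YER053C-A, which encodes an uncharacterised protein, rests more on single libraries. It lay at 139.5, 34.6, 24.2 and 13.6 RPKM and at 6.37, 0.606, 2.605 and 3.68, with xrn1 1 far above the other 3 xrn1 libraries and upf1 2 the lowest (log2 difference 3.29 ± 0.67, adjusted p = 0.00319). Without xrn1 1 its difference relative to the median of all genes was 2.18, and without upf1 2 it was 2.15, against 2.78 with all libraries, and the call held. The other genes of the 15 were ATG41, of autophagosome formation (3.07 ± 0.21, adjusted p = 4.99e-05), RTS3, a putative phosphatase component (2.94 ± 0.301, adjusted p = 1.30e-04), and CUR1, a sorting factor for misfolded proteins (2.92 ± 0.26, adjusted p = 8.11e-05).

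**Figure D4:**
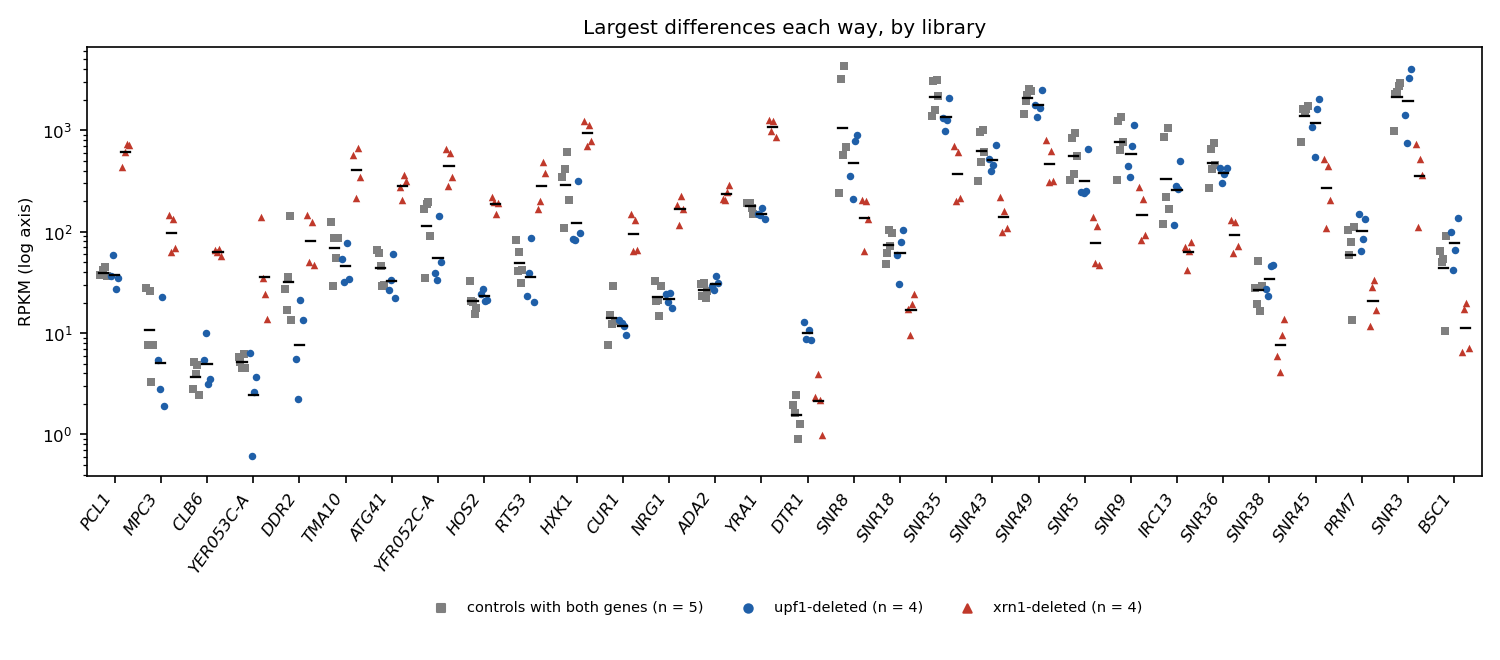
RPKM on a log axis of the 15 genes with the largest direct difference toward a higher level without Xrn1 and the 15 with the largest toward a lower level, among genes whose arms do not overlap. The 5 control, 4 upf1-deleted and 4 xrn1-deleted libraries have 1 symbol each, with a bar at the geometric mean of each group. On the left the xrn1 libraries sit above the controls (DDR2 overlaps them) and the upf1 libraries overlap the controls. On the right the xrn1 libraries sit mostly below the controls, except for DTR1, where the upf1 libraries are above both.

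Every gene was put in a class from the direct comparison and both comparisons with the controls, and a class is given here only where both scalings place a gene in it. Xrn1-limited genes were called higher without Xrn1 than without Upf1 and than in the controls, and were not called higher without Upf1. There were 866 of them (13.3% of the 6499 genes tested in all comparisons; 2537 as deposited, or 39%, and 1021 centred, or 15.7%). Their median difference was 1.54 without Xrn1 and 0.14 without Upf1, both against the controls. For 577 of the 866, the 95% interval of the upf1 change lay under a 1.5-fold rise in both scalings. TIS11, a zinc-finger protein that promotes the decay of mRNAs in iron shortage, was among those with the largest direct difference. It lay at 119.6, 20.1, 204 and 123 RPKM and at 7.32, 3.14, 27.7 and 12.4, with xrn1 2 below htz1 upf1 (log2 difference 3.06 ± 0.49, adjusted p = 9.65e-04).

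Shared genes (called higher in both deletions against the controls and not called in the direct comparison) numbered 228 in both scalings (3.51%; 1009 as deposited, or 15.5%, and 554 centred, or 8.52%). Their medians were 1.80 without Xrn1 and 1.56 without Upf1. A direct difference that is not called does not show equal levels, and for 18 of the 228 its 95% interval lay within 1.5-fold in both scalings (for 477 of the 1009 as deposited). Of the genes of this class as deposited with the largest rises, taking for each gene the smaller of its rises, 2 are genes of allantoin use, and neither belongs to the class after centring. DAL7, a malate synthase, lay at 96.4, 77.6, 96.7 and 71.9 RPKM without Xrn1 and at 96.6, 113, 104 and 84.9 without Upf1, against 6.36 to 9.42 in the controls (log2 difference -0.22 ± 0.13, adjusted p = 0.172; centred -0.75, adjusted p = 0.00318). Both arms overlapped and stood above all controls. DAL5, the allantoate permease, lay at 48.9, 45.4, 55.8 and 38.2 RPKM and 46.7, 67.9, 53.7 and 41.7, against 2.54 to 6.34 (log2 difference -0.14 ± 0.15, adjusted p = 0.437; centred -0.67, adjusted p = 0.0115).

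The neighbours YNR068C and BSC5, 237 bases apart on chromosome XIV, were raised together. BSC5, identified through readthrough of its stop codon, lay at 50.8, 39.4, 52.6 and 32.4 RPKM and 35.1, 39.6, 40.1 and 32.5, against 3.399 to 7.63 (log2 difference 0.22 ± 0.14, adjusted p = 0.194; centred -0.31, adjusted p = 0.104), and YNR068C at 49.9, 34.4, 47.1 and 29.3 and 37.2, 38.1, 35.2 and 33.3, against 2.93 to 8.15 (log2 difference 0.13 ± 0.16, adjusted p = 0.519). Both belong to the class in both scalings, with arms that overlapped. AAD10, an aryl-alcohol dehydrogenase gene (0.15 ± 0.15, adjusted p = 0.398), and BIO5, a transporter of biotin precursors (0.07 ± 0.17, adjusted p = 0.725), did so too. DFP1, of the DUP240 family, had the same pattern as deposited (-0.03 ± 0.19, adjusted p = 0.902) and was called lower without Xrn1 after centring (-0.56, adjusted p = 0.0364).

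NMD-limited genes, the reverse of the Xrn1-limited class, were few. As deposited 35 genes (0.539%) were called lower without Xrn1 than without Upf1, called higher without Upf1 than in the controls and not called higher without Xrn1. Centred there were 271 (4.17%), and 15 (0.231%) in both scalings. The number fell to 22 as deposited without swr1 upf1 and to 13 in the libraries with intact HTZ1 and SWR1. For 5 of the 15 (CSS1, UPS3, GLO4, URA6 and BNA7) the 95% interval of the xrn1 change lay under a 1.5-fold rise in both scalings. Of these, UPS3, GLO4, URA6 and BNA7 were chosen for description after their values were seen.

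CSS1, which encodes a secreted protein, lay at 77.7, 162, 97.2 and 128 RPKM without Xrn1 and at 282, 203, 280.3 and 260.1 without Upf1, against 75.7 to 127 in the controls. All upf1 libraries were above all others, and the xrn1 libraries overlapped the controls (log2 difference -1.18 ± 0.24, adjusted p = 0.00319). URA6, a uridylate kinase of pyrimidine synthesis, lay at 132, 161, 129 and 149 and at 223, 221, 222 and 238, against 117 to 148 (log2 difference -0.66 ± 0.12, adjusted p = 0.00191; xrn1 against controls 0.09 ± 0.11, adjusted p = 0.443). Its groups were tight, and the upf1 libraries did not overlap either other group. GLO4, a mitochondrial glyoxalase, lay at 14.1, 13.96, 18.1 and 10.7 and at 21.8, 24.6, 28.5 and 19.7, against 9.89 to 16.9 (log2 difference -0.704 ± 0.13, adjusted p = 0.0018).

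UPS3, a mitochondrial intermembrane space protein, lay at 25.01, 21.9, 18.5 and 21.4 RPKM and at 46.4, 30.7, 46.7 and 49.4, against 18.2 to 25.2 (log2 difference -0.95 ± 0.18, adjusted p = 0.00249). BNA7, of NAD synthesis from tryptophan, lay at 29.5, 29.98, 17.6 and 22.98 and at 39.9, 44.9, 32.6 and 30.7, against 16.7 to 30.6 (log2 difference -0.56 ± 0.13, adjusted p = 0.00604). In both, the upf1 libraries were above all xrn1 libraries and all controls. DTR1, a transporter of the spore wall, had the largest difference of the class. It lay at 2.34, 3.93, 2.18 and 0.994 RPKM and at 12.7, 8.73, 10.8 and 8.45, against 0.903 to 2.44 in the controls (log2 difference -1.79 ± 0.25, adjusted p = 4.44e-04; upf1 against controls 2.099 ± 0.24, adjusted p = 2.19e-05). The upf1 libraries stood apart from both other groups, but the upper bound of the xrn1 change as deposited, 0.83 on the log2 scale, lay above a 1.5-fold rise.

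Among the 8 with the largest difference as deposited, YCL021W-A (-1.54), DCG1 (-1.14) and BNA6 (-0.98) were in the class in deposited values only. The remaining members of the class in both scalings were lower or less even. YGL262W lay at 6.96, 5.76, 0.984 and 1.59 RPKM in the upf1 libraries and at most at 0.924 in the xrn1 libraries, with the 2 double deletions below the 2 upf1 libraries (log2 difference -1.43 ± 0.32, adjusted p = 0.00495). YER188W lay at 5.89, 6.44, 2.49 and 0.507 and at 14.1, 28.6, 2.68 and 5.63, with overlap, and the call was lost without swr1 upf1 (-1.58 relative to the median of all genes, against -1.84; adjusted p = 0.052). SNZ3, of vitamin B6 synthesis, and its near-copy SNZ2, whose reads may be shared, differed by -0.98 ± 0.26, adjusted p = 0.0115 and -0.96. The others were MIP6 (-0.91), UGA4, a GABA permease (-0.85), YJL077W-A (-0.84), YOL014W (-0.81) and MIN9 (-0.62).

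Genes raised by both deletions but not equally formed 2 further classes, added after the data were seen. In both scalings 98 genes (1.51%) were higher without Xrn1 and 40 (0.615%) higher without Upf1. As deposited these were 849 (13.1%) and 100 (1.54%) genes, and centred 98 and 279 (4.29%). RIM4, an RNA-binding regulator of meiosis, was of the first kind, with 58.2, 55.98, 102 and 52.4 RPKM without Xrn1 and 28.6, 27.01, 17.3 and 12.1 without Upf1, against 3.57 to 8.599 in the controls (log2 difference 1.63 ± 0.25, adjusted p = 7.80e-04; centred 1.104). The 3 groups did not overlap. Centred, its call was lost without swr1 xrn1 or swr1 upf1 (0.99 and 0.99 relative to the median of all genes, against 1.12). SPS4, a sporulation gene, was of the second kind, with 14.2, 13.7, 11.9 and 13.1 RPKM and 25.2, 19.2, 25.95 and 31.9, against 1.81 to 3.29 (log2 difference -0.88 ± 0.17, adjusted p = 0.00223). Its groups did not overlap either.

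SER3, of serine synthesis, and SRG1, the non-coding RNA transcribed across the SER3 promoter, share 77 bases on one strand of chromosome V and were both of the first kind. SER3 lay at 344, 300.1, 347 and 339 RPKM and 57.2, 193, 91.7 and 56.2, against 18.7 to 55.2 in the controls, and upf1 2 was the highest of the upf1 libraries (log2 difference 1.92 ± 0.35, adjusted p = 0.00195; centred 1.39). SRG1 lay at 445, 351, 425 and 411 and 114, 67.6, 150.4 and 100.1, against 50.5 to 85.2 (log2 difference 1.96 ± 0.205, adjusted p = 1.45e-04; centred 1.43). Neither gene's xrn1 libraries overlapped its upf1 libraries, and reads in the shared bases cannot be assigned. Centred, the call of SER3 was lost without any 1 of swr1 xrn1, swr1 upf1, htz1 xrn1 and htz1 upf1 (differences of 1.19, 1.19, 1.37 and 1.37 relative to the median of all genes).

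A further 429 genes were called in the direct comparison in both scalings, with no rise above the controls called in the higher arm (6.6%; 496 as deposited, or 7.63%, and 1745 centred, or 26.9%). The class does not ask for a called fall in the lower arm. Their median change against the controls was -0.80 without Xrn1 and -0.08 without Upf1. Of the 496, 426 had the lower level in the xrn1 arm and 70 in the upf1 arm. URA1, an enzyme of pyrimidine synthesis activated by the NMD target PPR1, was one of them, with 313, 477, 114 and 294 RPKM without Xrn1 and 548, 2159, 682 and 437 without Upf1, against 168 to 469 in the controls (log2 difference -1.53 ± 0.46, adjusted p = 0.0185). Its arms overlapped, neither arm was called against the controls as deposited (-0.52 ± 0.41, adjusted p = 0.247 and 1.01 ± 0.41, adjusted p = 0.0816), and the direct call was lost without any 1 of xrn1 1, htz1 xrn1 and htz1 upf1 (adjusted p = 0.0563, 0.0953 and 0.0948).

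Some features of sequence and position that the calls did not use can be set beside the classes. Control level is also given. It comes from the control libraries that the calls used, so the control level of a class is not independent of its calls. An ATG lay within the 50 bases before the start codon, in any frame on the coding strand, in 1130 of 5820 protein-coding genes (19.4%), in 79 of 205 shared genes (38.5%) and in 116 of 802 Xrn1-limited genes (14.5%). Within 100 bases the shares were 51.3%, 74.6% and 40.02%. Such an ATG is also more common in genes of low level, and the shared genes were low, with a median control level of 8.67 RPKM against 30.1 over all coding genes and 21.9 in the Xrn1-limited class. In the lowest quintile of genes by control level (quintile 1), the share within 50 bases was 31.7% for all genes. It was 36.6% for the shared ones (49 of 134) and 20.5% for the Xrn1-limited ones (23 of 112). In the same order, the shares were 26.6%, 45.8% (22 of 48) and 16.2% (50 of 309) in quintile 2. They were 19.8%, 40% (6 of 15) and 11.5% (29 of 252) in quintile 3. In quintile 4 they were 12.03%, 25% (2 of 8) and 12.6% (14 of 111). Quintile 5 held no shared gene. The share was thus higher in shared than in all genes in quintiles 1 to 4, with few shared genes in quintiles 3 and 4. These windows do not mark where transcription starts, so an ATG in them need not be in the mRNA.

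Coding length was also unequal. Its median was 1627.5 bases in the Xrn1-limited class, 1131 in the shared class and 1194 over all coding genes. Genes within 20 kb of a chromosome end made up 15.6% of the shared class and 0.623% of the Xrn1-limited class, against 3.93% of all coding genes. The direct difference itself followed level in a curve, with medians of 0.40, 0.83, 0.79, 0.58 and -0.05 from the lowest to the highest quintile of control level. These shares are descriptions of the called genes and were not tested.

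Of 16 mRNAs known to carry upstream reading frames, CPA1 and PPR1 among them, 10 were called higher without Xrn1 than without Upf1 and 1 lower (median 0.83), and centred 6 were higher and 4 lower (median 0.30). As deposited that is 62.5% higher and 6.25% lower, against 52.9% and 8.59% of all genes. Centred it is 37.5% and 25%, against 26.1% and 26.2%. PET111, a translational activator of a mitochondrial mRNA, lay at 74.5, 62.6, 62.3 and 51.4 RPKM and at 12.96, 14.3, 15.7 and 9.996, against 10.01 to 17.1 in the controls (log2 difference 2.17 ± 0.13, adjusted p = 4.99e-05). CLN3, a G1 cyclin, lay at 146, 159.7, 204 and 259.6 and at 40.4, 30.5, 78.8 and 62.3, against 39.5 to 76.2 (log2 difference 1.89 ± 0.17, adjusted p = 8.31e-05). Both had xrn1 libraries above all others and upf1 libraries among the controls. SCO1, of copper delivery to cytochrome oxidase (log2 difference 1.77 ± 0.15, adjusted p = 8.02e-05), and YAP1, the oxidative stress regulator (log2 difference 1.42 ± 0.16, adjusted p = 1.82e-04), were called higher as well, and all 4 held after centring.

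Small nucleolar RNAs (snoRNAs), which guide rRNA modification in the nucleolus, and other abundant RNAs were lower without Xrn1. The 15 largest differences in this direction among genes whose arms do not overlap held 11 snoRNA genes, IRC13, BSC1, PRM7 and DTR1. Of these 15, 14 were called below the controls without Xrn1, and only DTR1 was called above the controls without Upf1. Over all genes the shares were 7.34% and 31.3%. The ranking favours genes with low xrn1 values, so these counts follow in part from the choice. Of 75 snoRNA genes, 59 were called lower (78.7%, against 8.59% of all genes) and none higher (median -1.43). Centred, 69 were lower (92%, against 26.2%) and none higher (median -1.96). Against the controls 63 were called lower without Xrn1 and none without Upf1, beside 7.34% and 0.738% of all genes. Centred, 74 and 4 were lower, beside 29.1% and 23.1%. SNR36 lay at 130.5, 60.95, 124 and 71.5 RPKM and at 423, 302, 369.96 and 425, against 271 to 746 in the controls (log2 difference -2.02 ± 0.27, adjusted p = 3.65e-04). SNR49 lay at 809, 306, 625 and 313 and at 1778, 1337, 1656 and 2498, against 1446 to 2576 (log2 difference -1.91 ± 0.36, adjusted p = 0.00211). In both, xrn1 2 and swr1 xrn1 were the lowest libraries, and all xrn1 libraries lay below all others.

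Other snoRNAs spread more. SNR3 lay at 729, 112, 526 and 366 RPKM and at 1411, 754, 3266 and 3990.4, with xrn1 2 and upf1 2 lowest in their arms (log2 difference -2.44 ± 0.56, adjusted p = 0.00587). Without xrn1 1 its difference relative to the median of all genes was -3.61, against -2.95. For SNR5, swr1 upf1 stood at 658 RPKM and the other 3 upf1 libraries at 239.9 to 252, against 139, 49.1, 114 and 47.2 without Xrn1 (log2 difference -1.995 ± 0.46, adjusted p = 0.00598). Without swr1 xrn1 or swr1 upf1 the difference of SNR5 relative to the median was -1.91, against -2.51. SNR128, the U14 RNA of rRNA processing, lay at 290.3, 24.7, 216 and 94.01 RPKM and at 519, 268, 1538 and 3494, with xrn1 1 just above upf1 2 (log2 difference -3.06 ± 0.79, adjusted p = 0.00964). Its difference relative to the median was -4.46 without xrn1 1 and -2.86 without swr1 xrn1 or swr1 upf1, against -3.57.

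The remaining snoRNA genes of the 15 were SNR45 (-2.13), SNR9 (-2.02), SNR43 (-1.87), SNR35 (-1.87) and SNR8 (-1.79). Larger fitted differences with arms that overlapped were those of SNR40 (-2.73), SNR13 (-2.53), SNR39B (-2.48) and SNR60 (-2.47). The call was lost for SNR40 without any 1 library other than xrn1 1 and upf1 2, for SNR13 without any 1 double deletion (adjusted p = 0.0602 to 0.0654) and for SNR39B without htz1 xrn1 or htz1 upf1 (adjusted p = 0.0582).

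Some of these entries share reads with other genes. SNR38 lies within TEF4 and SNR18 within EFB1, both on the same strand, and IRC13 shares 78 of its 315 bases with SNR17A. The RNAs of this kind are short, and libraries differed in how much of them they held. Over the snoRNA genes, the summed level was 2.62 to 4.99% of the RPKM in the xrn1 libraries, 6.83 to 9.76% in the upf1 libraries and 7.77 to 11.9% in the controls. Whether recovery of short RNA differed between the preparations was not tested. NME1, the RNA of RNase MRP, was lower too, with 1064, 393, 737 and 492 RPKM and 1908, 1415, 2005 and 2559 (log2 difference -1.63 ± 0.33, adjusted p = 0.00302), and so was SCR1, the RNA of the signal recognition particle (log2 difference -0.74 ± 0.21, adjusted p = 0.0144), whose call was lost without upf1 1, upf1 2 or xrn1 2 (differences of -1.21, -1.21 and -1.15 relative to the median of all genes, against -1.25).

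BSC1 and PRM7 lie 519 bases apart on chromosome IV. BSC1 had the largest difference of the 15, with 6.4999, 17.4, 19.96 and 7.04 RPKM without Xrn1 and 98.2, 41.9, 65.7 and 138 without Upf1, against 10.5 to 89.6 in the controls (log2 difference -2.68 ± 0.45, adjusted p = 0.00125). PRM7, a pheromone-regulated gene, lay at 11.6, 28.2, 33.1 and 16.8 and at 149.9, 64.8, 85.4 and 133, against 13.5 to 111 (log2 difference -2.25 ± 0.38, adjusted p = 0.00116). In both, xrn1 1 and swr1 xrn1 were the lowest xrn1 libraries, and htz1 2 stood far below the other 4 controls.

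Genes of protein synthesis were lower without Xrn1. Of 137 ribosomal protein genes, 97 were called lower (70.8%, against 8.59% of all genes) and 3 higher (2.19%, against 52.9%; median -0.56). Centred, 131 were lower (95.6%, against 26.2%) and none higher (median -1.09). The genes called higher as deposited were RPS28B, RPS9A (0.80 ± 0.23) and RPS14B (0.77 ± 0.17), the last 2 named after their values were seen. RPP0, of the ribosomal stalk, lay at 939, 1288, 1180.4 and 1006 RPKM and at 2681, 2253, 1953 and 2469, against 2434 to 3459 in the controls (log2 difference -1.08 ± 0.17, adjusted p = 9.24e-04). The 89 with introns had a median of -0.54, near that of all 137. Against the controls, 118 of the 137 were called lower without Xrn1 and 2 without Upf1 as deposited, beside 7.34% and 0.738% of all genes. Centred, 132 and 78 were lower, beside 29.1% and 23.1%. RPL41A (-1.39), RPL41B (-1.31), RPP1B (-1.02), RPS23B (-0.92), RPL36B (-0.91) and RPL6A (-0.89) were among the largest called differences. RPL41A and RPL41B are near-identical copies whose arms overlapped, and the call of RPL41B was lost without any 1 of swr1 xrn1, swr1 upf1, htz1 xrn1, htz1 upf1 and xrn1 2 (adjusted p = 0.0609 to 0.0801).

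Of 37 translation factors, 13 were lower (35.1%, against 8.59% of all genes) and 8 higher (21.6%, against 52.9%; median -0.27). Centred, 27 were lower (73.0%, against 26.2%) and none higher. The most abundant were among those called lower. EFT2, one of a pair of near-identical genes for elongation factor 2 whose reads may be shared, lay at 1450.2, 1535, 1597 and 1317 RPKM and at 3547, 3617, 2764 and 3343 (log2 difference -1.16 ± 0.15, adjusted p = 3.55e-04), and YEF3, elongation factor 3, at 1594, 1757, 1175 and 1291 and at 3712, 3410.4, 2365 and 2971 (log2 difference -1.097 ± 0.14, adjusted p = 2.82e-04). Arms did not overlap in either. The other called leaders were EFT1, the copy of EFT2 (-1.17), and TEF2, of elongation factor 1 (-1.096). Ribosome biogenesis factors were mixed, with 6 of 56 higher (10.7%) and 11 lower (19.6%; median 0.01) as deposited, and 1 higher (1.79%) and 28 lower (50%) centred. NSR1, a nucleolin-like protein, lay at 187, 367, 209 and 391 and at 647, 537, 635 and 582 (log2 difference -1.13 ± 0.25, adjusted p = 0.00448), while UTP15, of the small subunit processome, lay at 128, 159, 127 and 181 and at 78.9, 60.4, 78.8 and 79.3 (log2 difference 0.98 ± 0.15, adjusted p = 7.75e-04; centred 0.45). UTP9 (0.91) and RRP9 (0.89), of the same complex, were called higher as deposited and not centred (0.38 and 0.36).

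Glycolysis and fermentation split by enzyme. Of 21 genes tested, 16 were called lower without Xrn1 (76.2%, against 8.59% of all genes) and 3 higher (14.3%, against 52.9%; median -1.02). Centred, 17 were lower (81.0%, against 26.2%) and 3 higher (14.3%, against 26.1%; median -1.55). ADH1, the main alcohol dehydrogenase, lay at 1424, 1626, 2065 and 1317 RPKM and at 5155, 5832, 4486 and 5042, against 5200.3 to 9118 in the controls (log2 difference -1.69 ± 0.18, adjusted p = 1.61e-04). ENO2, an enolase, lay at 2189.5, 2925, 3779 and 2664 and at 8606, 8942, 7389 and 8698, against 7963 to 12426 (log2 difference -1.57 ± 0.202, adjusted p = 3.38e-04). The xrn1 libraries were below all others in both. The rises were HXK1, above, GLK1, a glucokinase (log2 difference 1.85 ± 0.14, adjusted p = 6.03e-05; centred 1.32), and PYK2, a pyruvate kinase chosen after its values were seen (1.43 ± 0.18), and for GLK1 the upf1 libraries (134, 114, 239.8 and 101 RPKM) lay below most controls (184 to 553).

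Of 36 heat shock and general stress genes, 23 were called higher without Xrn1 and 1 lower (median 1.17), and centred 18 were higher and 6 lower (median 0.64). That is 63.9% higher against 52.9% of all genes as deposited, and 50.0% against 26.1% centred. HSP78, a mitochondrial chaperone, lay at 206, 124, 198 and 137 RPKM and at 25.8, 27.6, 22.6 and 20.8, against 18.6 to 40.1 (log2 difference 2.71 ± 0.18, adjusted p = 4.99e-05). TSL1, of trehalose synthesis, lay at 363, 215, 462 and 197 and at 46.5, 34.4, 95.5 and 38.5, against 54.97 to 205 (log2 difference 2.53 ± 0.204, adjusted p = 6.60e-05). HSP12, a membrane stress protein, lay at 1443, 649, 1056 and 376 and at 111, 171, 155 and 168, against 145 to 1257 (log2 difference 2.38 ± 0.36, adjusted p = 6.70e-04). In all 3 the arms did not overlap, but TSL1 and HSP12 varied among the controls, and their upf1 levels were at the low end of the control range.

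Of 38 nuclear genes of the respiratory chain, 25 were called higher without Xrn1 and none lower (median 0.68), and centred 10 were higher and 1 lower (median 0.15). These shares of 65.8% and 26.3% stand beside 52.9% and 26.1% of all genes, so after centring the share called higher lay at the background. The centred share called lower was 2.63%, against 26.2% of all genes, and the centred median over all genes was -0.02. CYC7, the minor cytochrome c, lay at 64.6, 31.4, 31.9 and 15.3 RPKM and at 7.74, 9.703, 4.78 and 2.86 (log2 difference 2.27 ± 0.23, adjusted p = 1.31e-04; centred 1.74), and NDI1, the internal NADH dehydrogenase, at 127, 109, 86.5 and 76.3 and at 27.6, 19.1, 25.4 and 19.7 (log2 difference 2.06 ± 0.17, adjusted p = 6.99e-05; centred 1.53). Within each arm the swr1 library was the lowest or next to lowest for both. Against the controls, 20 of the 38 were called higher without Xrn1 and 1 lower as deposited, against 75% higher over all genes, and centred 2 were higher and 24 lower. Without Upf1 none was higher and 9 were lower as deposited, and 28 lower centred, beside 0.738% and 23.1% lower over all genes. The direction without Xrn1 thus turns with the scaling. SDH2 (1.59; centred 1.06) and CYT1 (1.46; centred 0.93), of respiratory complexes, were called in both scalings with arms that did not overlap.

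**Figure D5:**
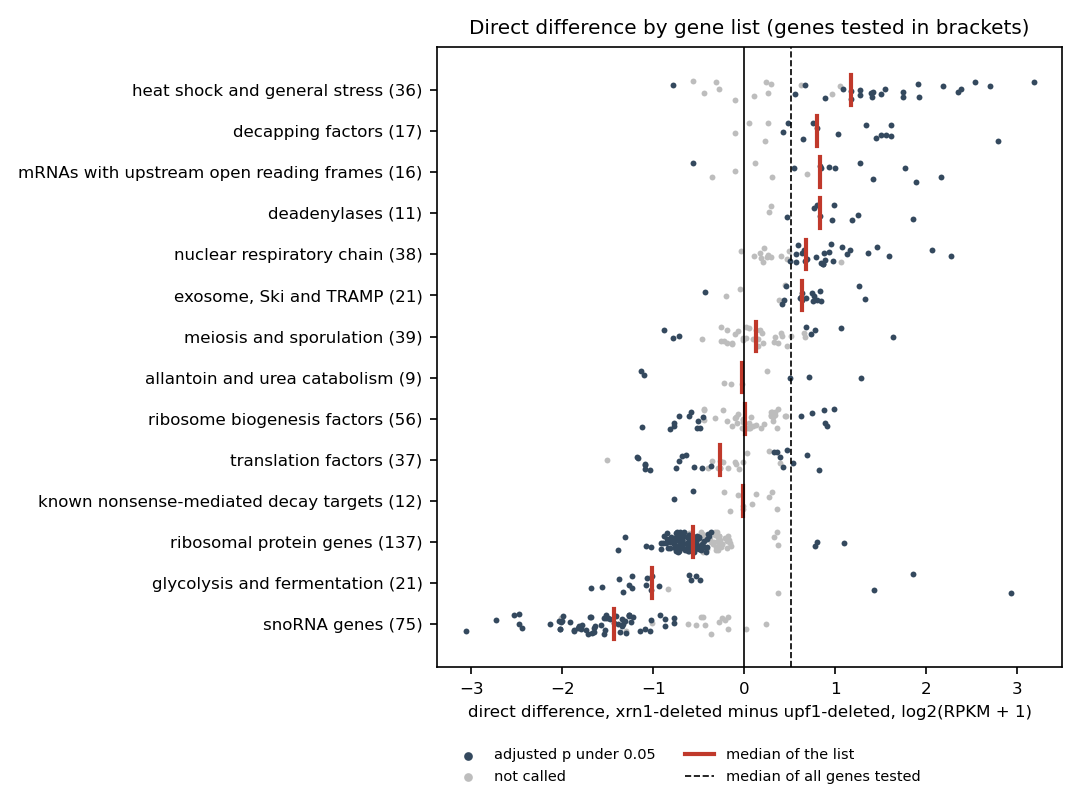
Direct difference in log2(RPKM + 1), xrn1-deleted minus upf1-deleted, for each gene of 14 lists, 1 point per gene tested, dark where the adjusted p was under 0.05. The red bar is the median of a list and the dashed line that of all genes tested (0.51). The medians of heat shock, decapping and deadenylase genes lie to its right, and those of snoRNA, glycolysis and ribosomal protein genes to the left of 0, with single genes of these lists on either side.

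Nutrient lists held genes called in either direction. Over all genes tested, 52.9% were higher and 8.59% lower as deposited, and 26.1% and 26.2% centred. Of 25 methionine and sulfate assimilation genes, 13 were called higher without Xrn1 (52%) and 2 lower (8%; median 0.38), near the shares of all genes. Centred, 4 were higher (16%) and 8 lower (32%). MUP3, a methionine permease, lay at 52.6, 51.98, 62.9 and 43.8 RPKM and at 9.16, 13.7, 13.5 and 7.23 (log2 difference 2.21 ± 0.16, adjusted p = 5.49e-05; centred 1.68), and MET13, of methionine synthesis, at 87.1, 76.9, 128 and 86.5 and at 21.5, 21.5, 30.3 and 21.8 (log2 difference 1.94 ± 0.11, adjusted p = 4.70e-05; centred 1.405). Arms were far apart in both, though MET17 of the same pathway was at or near 0 in 2 libraries of each arm. MUP1, a methionine permease (1.89; centred 1.36), and MET28, an activator of the pathway (1.79; centred 1.26), were called higher in both scalings, the centred call of MET28 not without htz1 xrn1 or htz1 upf1. Of 40 Gcn4-activated amino acid genes, 9 were higher (22.5%) and 8 lower (20%) as deposited, and 2 (5%) and 19 (47.5%) centred. LYS1, of lysine synthesis, was higher (1.48), while ILV6, of branched amino acid synthesis (-0.98), and HOM2, of threonine and methionine synthesis (-0.77), were lower, all 3 in both scalings. Of 27 iron regulon genes, TIS11 among them, 17 were higher (63.0%) and 1 lower (3.70%; median 0.92). Centred, 10 were higher (37.0%) and 2 lower (7.41%). CTH1, a relative of TIS11 with the same role, lay at 147, 100.02, 186 and 171 RPKM and at 36.9, 25.9, 47.6 and 38.3 (log2 difference 1.99 ± 0.17, adjusted p = 7.82e-05). ISU1, the scaffold of iron-sulfur cluster assembly (1.74; centred 1.21), and SIT1, a siderophore transporter (1.72; centred 1.19), were called higher in both scalings, but the centred call of SIT1 was lost without any 1 library other than xrn1 1 and xrn1 2.

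Of 19 phosphate regulon genes, 8 were higher (42.1%, against 52.9% of all genes) and none lower (median 0.58). Centred, 2 were higher and 2 lower (10.5% each, against 26.1% and 26.2% of all genes). SPL2, a regulator of phosphate transport, lay at 87.7, 119, 14.2 and 98.96 RPKM without Xrn1 and at 56.01, 18.1, 1.99 and 19.7 without Upf1, with htz1 xrn1 far below the other xrn1 libraries (log2 difference 1.98 ± 0.33, adjusted p = 0.00117; centred 1.44). PHM7 (1.87; centred 1.34) was called in both scalings, and PHO81, which inhibits the Pho85 kinase (0.92), and the inositol phosphate kinase KCS1 (0.87) only as deposited. Without htz1 xrn1 the difference of PHM7 relative to the median of all genes was 0.77, against 1.36, and its centred call was lost without that library or any 1 of xrn1 1, xrn1 2, upf1 1 and upf1 2.

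Of 20 flocculin and cell wall mannoprotein genes, 6 were higher (30%) and 3 lower (15%; median 0.23). Centred, 3 were higher (15%) and 7 lower (35%; median -0.30). Over all genes the shares were 52.9% and 8.59% as deposited, and 26.1% and 26.2% centred. CWP1 lay at 336, 291, 382 and 206 RPKM and at 125, 10.8, 117 and 109, with upf1 2 far below the other upf1 libraries (log2 difference 2.16 ± 0.69, adjusted p = 0.0251). Without upf1 2 its difference relative to the median of all genes was 0.81, against 1.65, and the call was lost without any 1 of xrn1 1, xrn1 2, htz1 xrn1 and htz1 upf1 (adjusted p = 0.0599 to 0.0751) and after centring (1.63, adjusted p = 0.0812). SED1 (1.69) and PIR3 (1.48) were higher and TIR1 (-1.75) lower, in both scalings. Of 10 histone genes, 2 were called higher as deposited, the centromeric variant CSE4 (1.304; centred 0.77) and the H4 gene HHF2 (0.54; centred 0.01, adjusted p = 0.98). Centred, 1 was higher and 6 were lower, and the call of HHF2 was also lost as deposited without swr1 xrn1 or swr1 upf1 (adjusted p = 0.0515 and 0.0523). In the galactose pathway 1 of 7 genes was called higher, the epimerase gene GAL10 (0.72; centred 0.19, adjusted p = 0.341), and 1 lower, the transporter gene GAL2 (-0.86; centred -1.396).

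In allantoin and urea catabolism, 3 of 9 genes were called higher without Xrn1 (33.3%, against 52.9% of all genes) and 2 lower (22.2%, against 8.59%; median -0.03). Centred, 1 was higher (11.1%, against 26.1%) and 5 lower (55.6%, against 26.2%). The activator DAL81 was higher without Xrn1, with 63.7, 84.5, 113 and 123 RPKM and 35.7, 35.8, 41.8 and 37.5 (log2 difference 1.28 ± 0.16, adjusted p = 3.07e-04; centred 0.75). DAL82, the partner of DAL81, was called as deposited only (0.71; centred 0.18). The 2 genes called lower encode steps of allantoin use. DAL2, allantoicase, lay at 18.5, 31.7, 12.8 and 7.79 and at 37.5, 58.01, 38.1 and 19.4, against 2.11 to 7.05 in the controls (log2 difference -1.14 ± 0.22, adjusted p = 0.00264), and DAL4, the allantoin permease, at 11.9, 11.5, 4.01 and 1.75 and at 18.4, 19.3, 12.6 and 7.76 (log2 difference -1.099 ± 0.22, adjusted p = 0.00289). Arms overlapped for both, and in both the swr1 library was the lowest of its arm. All 9 genes were called above the controls without Xrn1 and 7 without Upf1, beside 75% and 31.3% of all genes.

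Of 37 meiosis and sporulation genes that could be compared with the controls, 34 were called higher without Xrn1 and 28 without Upf1 as deposited, beside shares of 75% and 31.3% over all genes. Centred, 19 were higher and 1 lower without Xrn1 and 26 were higher without Upf1, beside 32.3% and 21%. In the direct comparison 5 of 39 were higher (12.8%) and 3 lower (7.69%; median 0.13), beside 52.9% and 8.59% of all genes. Centred, 2 were higher (5.13%) and 18 lower (46.2%; median -0.41), beside 26.1% and 26.2%. The direction of the list thus depends on the scaling. MER1, a meiotic splicing regulator, lay at 21.5, 19.3, 11.2 and 19.7 RPKM and at 27.01, 47.02, 21.8 and 31.95, against 4.16 to 9.77 in the controls, with htz1 xrn1 the lowest of its arm (log2 difference -0.78 ± 0.18, adjusted p = 0.0063). SPO1, of spore formation, was called higher without Xrn1 in both scalings, with arms that overlapped (1.07; centred 0.54, a call lost without upf1 1, htz1 xrn1 or htz1 upf1).

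Genes within 20 kb of a chromosome end had a lower median direct difference than all genes. Of 229, 40 were called higher (17.5%) and 23 lower (10.04%; median -0.02), beside 52.9% and 8.59% of all genes (median 0.51). Centred, 15 were higher (6.55%) and 85 lower (37.1%; median -0.55), beside 26.1% and 26.2%. Of the 221 that could be compared with the controls, 186 were called higher and 3 lower without Xrn1 and 157 and 1 without Upf1 (shares higher over all genes 75% and 31.3%). Centred, these were 96 higher and 15 lower without Xrn1 and 130 and 10 without Upf1, beside 32.3% and 21%. YPS6, a cell wall protease gene, lay at 46.8, 28.7, 36.7 and 14.2 RPKM and at 11.9, 11.1, 3.61 and 3.37, against 1.799 to 4.91 (log2 difference 2.003 ± 0.28, adjusted p = 4.51e-04). ERR1 and ERR2, enolase-related genes with identical values, differed by 1.83 ± 0.54, adjusted p = 0.0181 as deposited, were not called after centring, and fell to 0.55 relative to the median of all genes without htz1 xrn1 or htz1 upf1, with 1.91 without swr1 xrn1 or swr1 upf1, against 1.32. Of 621 entries with no match in the annotation, 256 were higher (41.2%, against 52.9% of all genes) and 51 lower (8.21%, against 8.59%; median 0.35). YJL195C (2.595), YJR023C (2.51) and YDR269C (2.21) followed YFR052C-A as the leading ones.

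Genes with introns outside the ribosome had a lower median than all genes. Of 181, 64 were called higher without Xrn1 (35.4%) and 17 lower (9.39%; median 0.19), beside 52.9% and 8.59% of all genes. Centred, 23 were higher (12.7%) and 74 lower (40.9%; median -0.34), beside 26.1% and 26.2%. YML6, a mitochondrial ribosomal protein gene, lay at 105, 110.2, 98.3 and 126 RPKM and at 35.02, 22.1, 41.5 and 35.5, against 24.7 to 39.1 (log2 difference 1.71 ± 0.19, adjusted p = 1.59e-04; centred 1.18). RRT8 and LDS2, 303 bases apart on chromosome XV and both tied to the spore wall, were higher as well (1.66 ± 0.22, adjusted p = 4.17e-04 and 1.59 ± 0.21, adjusted p = 3.68e-04). IRT1, the non-coding RNA upstream of the meiotic regulator IME1, lay at 43.5, 61.2, 26.8 and 68.5 and at 78.8, 173, 51.3 and 76.5, against 9.88 to 21.2 in the controls (log2 difference -0.85 ± 0.28, adjusted p = 0.0288). Its arms overlapped, and the call was lost without any 1 of xrn1 1, xrn1 2, htz1 xrn1 and htz1 upf1 (differences of -1.196, -1.39, -1.38 and -1.38 relative to the median of all genes, against -1.36).

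Reading frames of the rDNA repeat were all called lower without Xrn1 (7 of 7, median -4.44), and centred too (median -4.98). Their levels were uneven, and relative to the median of all genes the list median was -3.45 without htz1 xrn1 or htz1 upf1 and -6.32 without swr1 xrn1 or swr1 upf1, against -4.96 with all libraries. YLR162W lay at 18.8, 2.21, 6.41 and 1975 RPKM and 435, 50.5, 4132 and 3033 RPKM (log2 difference -4.55 ± 1.28, adjusted p = 0.0147). Its arms overlapped through swr1 xrn1, and the call was lost without htz1 xrn1 or htz1 upf1 (-3.58 relative to the median of all genes, against -5.06; adjusted p = 0.0624 and 0.0622). How much of this signal is rRNA left after depletion was not tested.

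Whether the direct difference depends on H2A.Z was tested as the difference in the htz1 or swr1 state minus that in the intact state, with 1 library per double deletion. The MET17 and LYS2 levels differed between htz1 xrn1 and htz1 upf1, so a strain difference there cannot be told apart from one of H2A.Z state. No gene was called in either state by limma among 6502 tested (0% in both), and 144 and 95 had an unadjusted p under 0.05. HXT15, a hexose transporter gene whose near-copy HXT16 may share its reads, was with HXT16 and YLR466C-B one of the 3 with the smallest p among those higher in the htz1 state. HXT15 lay at 29.4, 34.8, 77.1 and 2.85 RPKM without Xrn1 and at 32.9, 36.3, 1.81 and 3.44 without Upf1. In htz1 xrn1 it was above both xrn1 libraries, while in htz1 upf1 it was far below both upf1 libraries, and both swr1 double deletions were low (4.91 ± 0.85, adjusted p = 0.444). With a pseudocount of 5, HXT15 and HXT16 were called.

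Lower in the htz1 state by the same measure were SNU23, a spliceosome protein (-1.52 ± 0.402, adjusted p = 0.994), AAD3 (-2.46 ± 0.66, adjusted p = 0.994) and RDS1 (-2.58 ± 0.703, adjusted p = 0.994). SNU23 lay at 31.9, 26.9, 10.5 and 9.48 RPKM and at 21.1, 21.98, 23.5 and 20.1, with both double deletions of the xrn1 arm low and the upf1 arm level. In the swr1 state YBR196C-B (2.54 ± 0.63, adjusted p = 1), SNR56 (2.495 ± 0.74, adjusted p = 1) and ENT1, of endocytosis (1.08 ± 0.39, adjusted p = 1), were the leading genes higher, and SNR69 (-4.904 ± 0.79, adjusted p = 0.954), SNR64 (-5.72 ± 1.01, adjusted p = 0.954) and YCR099C (-2.24 ± 0.48, adjusted p = 1) those lower. SNR64 lay at 14.5, 7.81, 5.46 and 3.61 and at 16.9, 5.48, 40.8 and 223, with swr1 upf1 far above all others. None of these passed the test.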

How the data were processed

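The authors deposited 1 table of RPKM values per gene and library, and per the submitters' processing notes CASAVA and STAR 2.4.0 were used with the sacCer3 build. Neither labels nor headers name the counter, its strand setting or the annotation. RPKM times gene length gave whole reads for 99.8 to 100% of the values under 100 reads that were checked in each library (286 to 1007, within 0.1 read, where chance gives 20%), and larger values were not checked. Of 6662 entries, 3 without a name were left out (0.0203 to 0.129% of the summed RPKM), and 5986 of the other 6659 matched the R64 annotation, from which names, positions and sequences were taken (RefSeq). The table has 1 value column of no sample, which was not used.

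The filter kept genes whose mean was 1 RPKM or more, tested with limma 3.58.1 (R 4.3.3, moderated with a trend) on log2(RPKM + 1), so fold changes of low genes are understated. The direct fit holds the 8 libraries with H2A.Z state as a term, and the comparisons with controls hold 13. Intervals are at 95%. Adjusted p-values are Benjamini-Hochberg over all genes tested. The H2A.Z test used 1 mean per genotype over 13 libraries and 4 residual degrees of freedom. On simulated counts of the direct comparison (5909 genes), 100% of 4-fold, 91.8% of 2-fold and 32% of 1.5-fold changes were called, and 0.102% of unchanged genes. Each of 5 simulated sets had 200 changed genes and a dispersion of 0.04 for every gene. The simulation held no shift in scaling, no effect of H2A.Z state and no outlying library. In the data 61.5% of genes were called and many genes spread more, so these rates need not hold there.

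The members and gene lists were chosen with earlier results of these data known. Named genes are the 15 largest direct differences each way without overlap, the 8 leading genes of each class, up to 4 called genes of each list, all known NMD targets, NMD factors and Edc3 targets, and 3 each way in the H2A.Z test. Names outside this rule are given as chosen after their values were seen. Reads of overlapping, antisense or near-identical genes cannot be assigned. In bulk RNA, fewer cells with an RNA and less of it per cell cannot be told apart.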

Additional observations from a re-analysis of the deposited data

Results flagged for a closer look

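In each arm of 4 libraries, a library was singled out where its gap to the nearest of the others passed Dixon's 95% critical share of the whole range on the log2 scale. Of 354 arms tested, 17 had such a library, and chance gives about 1 in 20. The library upf1 2 was the low one in 6 of them, for the cell wall gene CWP1 (10.8 RPKM against 109 to 125 in the other 3), UTP15 (60.4 against 78.8 to 79.3), UTP9 (53.9 against 76.2 to 79.9), PPR1 (20.04 against 27.1 to 27.8), RPL22B (242 against 360.3 to 379) and UPS3 (30.7 against 46.4 to 49.4).

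Among the other upf1 libraries, upf1 1 was high for YJR023C (13.4 RPKM against 6.95 to 7.66), htz1 upf1 was high for HXK1 (313 against 83.0 to 97.4) and MET13 (30.3 against 21.5 to 21.8). The library swr1 upf1 was high for SNR5 (658 against 239.9 to 252) and URA6 (238 against 221 to 223).

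In the xrn1 arm, htz1 xrn1 was high for the meiotic regulator RIM4 (102 RPKM against 52.4 to 58.2) and low for MER1 (11.2 against 19.3 to 21.5) and SPL2 (14.2 against 87.7 to 119). The library xrn1 1 was high for NOT5, of the Ccr4-Not complex (158 against 129 to 133), xrn1 2 was low for SER3 (300.1 against 339 to 347), and swr1 xrn1 was high for YBR196C-B (16.3 against 7.04 to 8.15).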

How the results depend on the processing

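Of 146 named genes called in the direct comparison, 77 kept the call in every alternative, 69 lost it in at least 1, and 3 changed sign in at least 1 (GAL10, HHF2 and YKU70). Of 19 named genes not called, 17 were called in at least 1 alternative and 17 changed sign in at least 1. Of 36 list medians, 13 changed sign with centring and 21 in at least 1 alternative. The count of 3457 higher genes became 1707 after centring, 1673 centred with the replicate block, 1656 centred over 13 libraries, 794 centred with intact HTZ1 and SWR1 only, 1275 centred with the rDNA share as a covariate, and 1344 to 1635 centred without 1 library. The count of 561 lower genes became 1708, 1709 (with the block), 2067 (13 libraries), 1300 (rDNA covariate) and 1316 to 1630 (without 1 library) after centring, and 198 with intact HTZ1 and SWR1 only as deposited. Without 1 library and as deposited, the counts were 3075 to 3353 and 419 to 568. Against the controls, 4874 higher without Xrn1 became 2099 centred, and 477 lower became 1894 centred and 286 intact only. For Upf1 loss, 2032 higher became 950 intact only, and 48 lower became 1503 centred, 9 intact only and 19 to 69 without 1 library (19 without swr1, 26 without upf1 2). Centred classes held 1021 Xrn1-limited, 271 NMD-limited, 554 shared and 1745 genes with no called rise in the higher arm. NMD-limited genes, 35 as deposited, numbered 22 (swr1 upf1) to 42 (xrn1 1) without 1 library and 13 intact only. With a pseudocount of 5, the H2A.Z test called 2 genes. The causes were not tested.

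The direct differences (log2) whose sign changed after centring became AAD10 -0.38, BIO5 -0.46, BSC5 -0.31, CTF13 -0.26, EBS1 -0.41, EST1 -0.41, PPR1 -0.22, RPL22B -0.17, TEN1 -0.45, YKU70 -0.086 and YNR068C -0.404, with the same values under the replicate block. Centred over 13 libraries the values of changed sign were AAD10 -0.44, BIO5 -0.52, BSC5 -0.37, CTF13 -0.33, EBS1 -0.48, EST1 -0.47, HHF2 -0.059, PPR1 -0.29, RPL22B -0.23, TEN1 -0.52, YKU70 -0.15 and YNR068C -0.47. Centred with intact HTZ1 and SWR1 only they were AAD10 -0.34, BIO5 -0.82, BSC5 -0.33, CTF13 -0.24, EBS1 -0.42, EST1 -0.41, GAL10 -0.00105, HHF2 -0.023, PPR1 -0.22, TEN1 -0.12, YKU70 -0.067 and YNR068C -0.45. Centred with the rDNA share as a covariate they were AAD10 -0.52, BIO5 -0.69, BSC5 -0.46, CTF13 -0.18, EBS1 -0.42, EST1 -0.52, HHF2 -0.023, PPR1 -0.16, RPL22B -0.022, TEN1 -0.39, YKU70 -0.14 and YNR068C -0.604. As deposited, signs changed with intact HTZ1 and SWR1 only (BIO5 -0.23, DFP1 0.25, EST2 0.032, EST3 0.014, NMD4 0.034 and REC107 0.012), with the rDNA covariate (ALR1 0.00689, BIO5 -0.085, REC107 0.014, STN1 0.043 and YNR068C -0.000435), without the htz1 pair (BIO5 -0.044, REC107 0.013 and STN1 0.042), without the swr1 pair (BIO5 -0.015, DFP1 0.16 and NMD4 0.00297), with limma voom on recovered reads (DFP1 0.036) and with 1 mean per genotype (TEN1 -0.049). Over the fits without 1 library in both scalings, the ranges of genes whose sign changed were AAD10 -0.49 to 0.24, ALR1 -0.72 to 0.065, BIO5 -0.63 to 0.19, BSC5 -0.41 to 0.299, CTF13 -0.33 to 0.38, DFP1 -0.69 to 0.16, EBS1 -0.44 to 0.16, EST1 -0.49 to 0.19, HHF2 -0.076 to 0.62, NMD4 -0.76 to 0.00297, PPR1 -0.302 to 0.39, REC107 -0.58 to 0.013, RPL22B -0.32 to 0.48, STN1 -0.61 to 0.042, TEN1 -0.66 to 0.27, YKU70 -0.16 to 0.51 and YNR068C -0.55 to 0.23.

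With the replicate block as deposited, 3468 genes were higher and 584 lower. With 2 pairs (r = 0.187 across 6530 genes) the numbers are not taken to pair the samples. No paired analysis was possible because wild type is numbered 1 and 3 for the comparisons with controls. The fits that join centring with another change, and the 2 classes of unequal rises, were chosen after seeing the data. Depth limits genes of low level, and a 1.5-fold change is often missed.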
